A study of Homo sapiens with 6 samples.

Results

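The genes described here encode the core machinery of autophagy and its cargo receptors. They were taken by symbol from a list of 36 autophagy genes, and 35 of them had a row among the 17104 genes of the deposited count table. ULK2, a kinase of the initiation step, had no value here. The 6 libraries came from HBMEC, a human line labelled as brain endothelial cells. The 3 libraries titled CON are the normally cultured controls, and the 3 titled OGD are the cells put through OGD/R, a loss of oxygen and glucose followed by their return that serves as a culture model of ischaemic stroke. No genetic change is named, and the labels state neither the length of each phase nor whether replicate libraries are separate cultures. The p-values therefore measure only the spread between these libraries, which may be technical.

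Autophagy encloses a portion of cytoplasm in a newly made vesicle, the autophagosome, and delivers it to the lysosome for breakdown. A kinase complex around ULK1 starts the process, a lipid kinase complex marks the growing membrane, lipid transfer proteins feed it, and conjugation enzymes attach small ubiquitin-like proteins of the ATG8 family (LC3 and GABARAP) to it. Receptors such as SQSTM1 (p62) bind cargo on one side and ATG8 proteins on the other, and are degraded together with the cargo. Shortage of nutrients or oxygen is a known trigger, and much of the control acts on the proteins, which were not measured here.

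Transcript levels of the autophagy machinery differed little between the groups. Of the 35 measured members, 3 rose (OPTN, ATG2A and PIK3C3) and 3 fell (SQSTM1, ATG7 and ATG2B) by edgeR's quasi-likelihood test (threshold 0.05 after adjustment over all genes), while 29 did not pass. Among all genes tested, 10.2% rose and 9.48% fell, together 19.7%. Of all changed genes 51.9% thus rose, against 39.7% with total-count scaling, under which 1 member was higher and 5 were lower. The members' share of 17.1% (6 of 35) is near that background and is not a result about the list. The median log2 fold change (OGD/R over control) was 0.0039 over the 35 members, GABARAP with its few counts included, and -0.0046 over all genes. With a minimum of 1 CPM in 3 libraries, which leaves GABARAP out, these medians were -0.0034 and -0.0019. Without control replicate 3 the member counts were 1 higher and 1 lower, and without OGD/R replicate 1 they were 4 higher and 1 lower. Without OGD/R replicates 2 and 3 there were 1 and 0 higher, with 2 lower in each case. Over all genes the counts went from 1749 higher and 1621 lower to 1304 and 1079 without control replicate 3. They were 1545 and 1393, 1293 and 1142, and 1361 and 1208 without OGD/R replicates 1, 2 and 3. All 6 changed members lay under 0.5 on the absolute log2 scale. The same 6 passed, with the same direction, in DESeq2 and in limma-voom, and no other member did. Another 3 members had an unadjusted p under 0.05, namely ULK1, ATG5 and EPG5.

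Total counts were 31048662 to 34484647 per library. Apart from GABARAP, each member had at least 100 counts in every library. Levels are depth-adjusted counts scaled by TMM and given as CPM, and in bulk RNA fewer expressing cells and less RNA per cell cannot be told apart. Most defining markers of the labelled cell type had no row. No deposited gene was under 10 counts in more than 3 libraries, so a missing row can mean few counts, which was not tested. Of 12 endothelial markers 3 had a value (ESAM, CDH5 and ROBO4), while PECAM1, VWF, KDR, FLT1, TEK, TIE1, ERG, CLDN5 and EMCN had none. The 3 measured ones summed to 150.0 to 160.2 CPM in control and 151 to 157 CPM after OGD/R, most of it ESAM. CDH5 rose (0.81 ± 0.11, edgeR adjusted p = 2.71e-07), ROBO4 fell (-0.75 ± 0.17, adjusted p 0.00107), and ESAM did not pass (-0.06 ± 0.05). Of 12 epithelial markers 8 had a value, and they summed to 2485 to 2711 CPM in control and 3048 to 3104 CPM after OGD/R, a sum made mostly of keratins. KRT8, KRT18, KRT7 and ELF3 rose, while EPCAM (0.14), CLDN4 (-0.25), ESRP1 (-0.18) and CDH1 (-0.28) did not pass. Markers of pericytes and fibroblasts (4 of 10 measured) summed to at most 24.8 CPM in any library, of astrocytes (2 of 7) to 10.3, of microglia and leukocytes (1 of 8) to 0.787 and of neurons (4 of 7) to 35.01 CPM. The part of these keratin and marker differences in the results below was not tested.

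Compared per length of transcript, the 7 highest members were 4 of the 5 cargo receptors and 3 of the 4 ATG8 genes. SQSTM1 was at 180 CPM per kilobase in control, followed by OPTN at 78.0 and MAP1LC3B, which encodes LC3B, at 66.0 CPM per kilobase. GABARAPL1 and GABARAPL2 were at 54.8 and 50.9 CPM per kilobase. The remaining receptor gene, CALCOCO2, was at 21.9, below ATG13 (37.1), WIPI2 (28.3) and BECN1 (22.2 CPM per kilobase), and GABARAP is left out here for its few counts. At the other end, ATG10, an E2-like conjugation enzyme, was at 4.01, EPG5, a tether for fusion with lysosomes, at 4.42, and ATG4C, an ATG8 protease, at 4.36 CPM per kilobase. The length is that of the longest annotated coding transcript, so neighbours in this order are not ranked against each other.

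**Figure D1:**
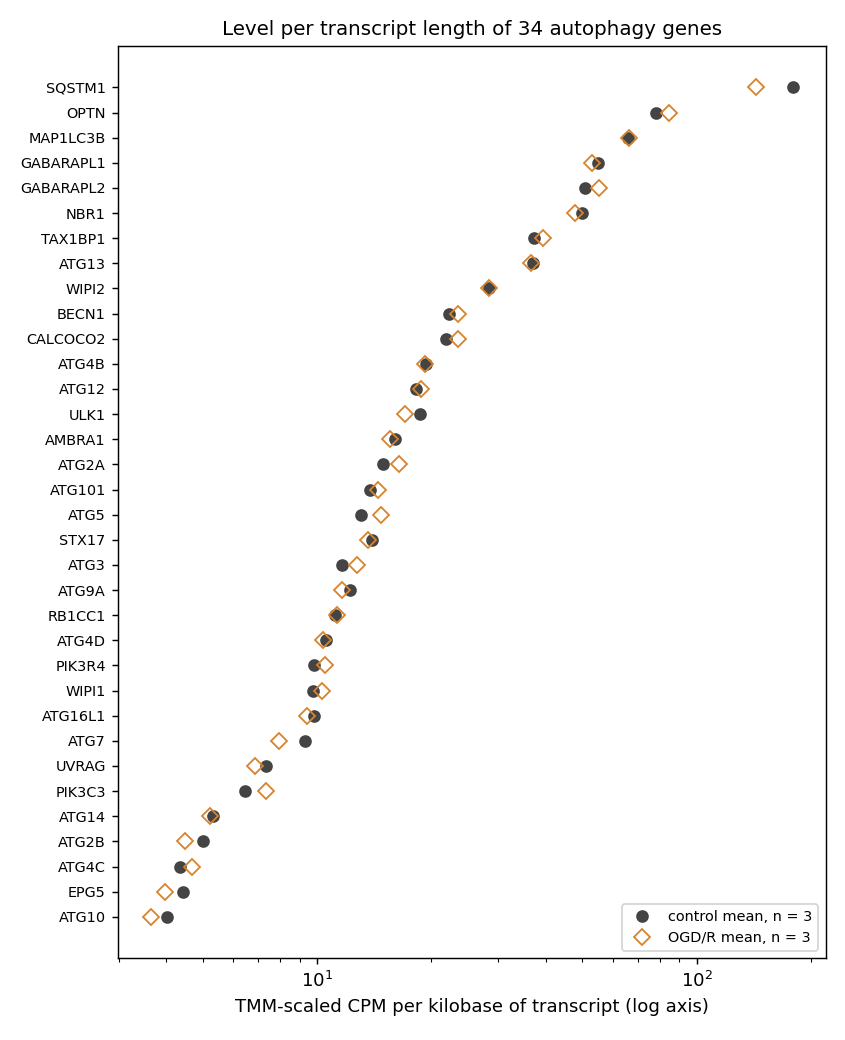
Level of 34 members in TMM-scaled CPM per kilobase of transcript on a log axis, with filled circles for the control mean and open diamonds for the OGD/R mean (3 libraries each). The order runs from SQSTM1, at 180 CPM per kilobase in control, down to ATG10, at 4.01, and the symbols of most genes nearly coincide. GABARAP, at 2 to 13 counts a library, is left out.

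The members varied little among libraries of a group. Over 34 members, without GABARAP, the coefficient of variation between libraries had a median of 3.35% in control and 4.72% after OGD/R, with highest values of 9.21% and 17.3%. The median deviation of the members from their control means lay between -0.02 and 0.01 (log2) in all 6. The members that fell and those that rose departed from this in each OGD/R library, by medians of -0.28 to -0.14 and 0.13 to 0.15, as the choice of changed members fixes.

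**Figure D2:**
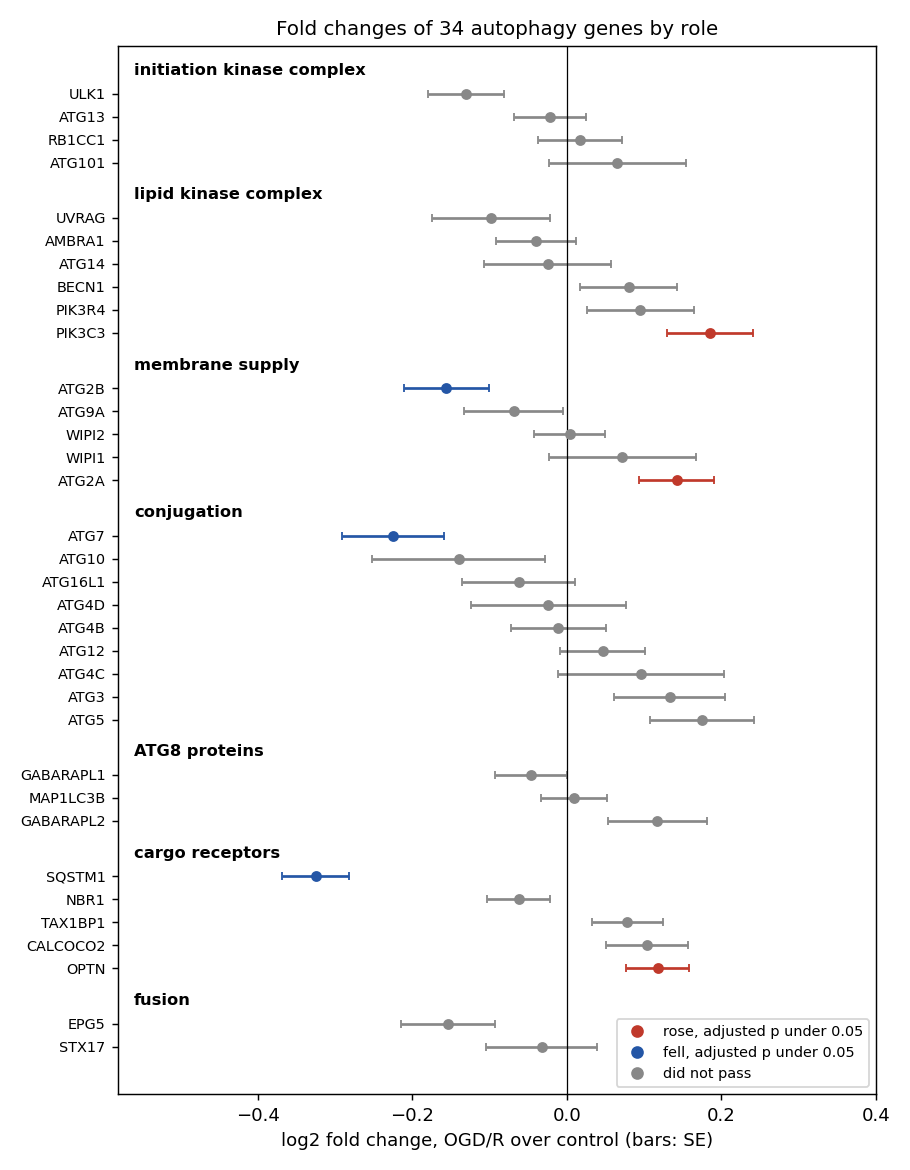
Log2 fold change of OGD/R over control for 34 members grouped by role, with bars for the standard error. Blue and red points are the 3 members that fell and the 3 that rose, between -0.32 (SQSTM1) and 0.18 (PIK3C3), and the grey points are members that did not pass.

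Among the cargo receptors, SQSTM1 fell and OPTN rose. SQSTM1 (ENSG00000161011) encodes p62, which carries ubiquitinated cargo and itself to the autophagosome and also holds KEAP1, the inhibitor of the antioxidant factor NRF2. Its level was 512, 574 and 524 CPM in control replicates 1, 2 and 3, and 440.1, 437 and 408 CPM in OGD/R replicates 1, 2 and 3. Every OGD/R library lay below every control library. The mean fell from 537 ± 32.8 to 428 ± 17.7 CPM (SD, n = 3 each), a log2 fold change of -0.32 ± 0.04 (SE, edgeR adjusted p = 7.72e-08). SQSTM1 was the 1 member of the 6 that passed under all 15 alternative settings, with values of -0.36 to -0.27.

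Part of the SQSTM1 transcript is shared with MRNIP, a neighbouring gene: 50.7% of its 50-base stretches also occur, on either strand, in annotated MRNIP transcripts. MRNIP was at 33.5 ± 2.36 CPM in control and 29.9 ± 1.37 CPM after OGD/R (-0.16 ± 0.07, edgeR adjusted p = 0.119). The labels do not say how shared reads were assigned, so the SQSTM1 level can be too low.

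OPTN (ENSG00000123240) encodes optineurin, a receptor for damaged mitochondria and bacteria. It was at 276, 283 and 265 CPM in the control libraries and at 292, 300.0 and 302 CPM in the OGD/R libraries, and the groups did not overlap. The rise was 0.12 ± 0.04 (edgeR adjusted p = 0.0343). It did not pass with total-count scaling (0.09, adjusted p 0.129), without control replicate 3 (0.10, adjusted p 0.185), without OGD/R replicate 2 (0.11, adjusted p 0.130) or without OGD/R replicate 3 (0.11, adjusted p 0.134).

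The other 3 receptors did not pass. NBR1, a p62-like receptor, was at 234, 235 and 227 CPM in control and 218, 222 and 226 CPM after OGD/R. These groups did not overlap, but the difference was small (-0.06 ± 0.04, edgeR adjusted p = 0.326). Groups without overlap were seen in 10 of 35 members, and in 33.0% of all genes. GABARAP is among the 10, with under 10 counts in every control library and more in every OGD/R library. No deposited gene was under 10 counts in more than 3 libraries, so GABARAP has a row only through its OGD/R libraries. TAX1BP1 (0.08 ± 0.05, adjusted p 0.260) and CALCOCO2 (0.10 ± 0.05, adjusted p 0.180), which encodes NDP52, had overlapping groups. CALCOCO2 passed without control replicate 2 (0.16, adjusted p 0.0401).

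**Figure D3:**
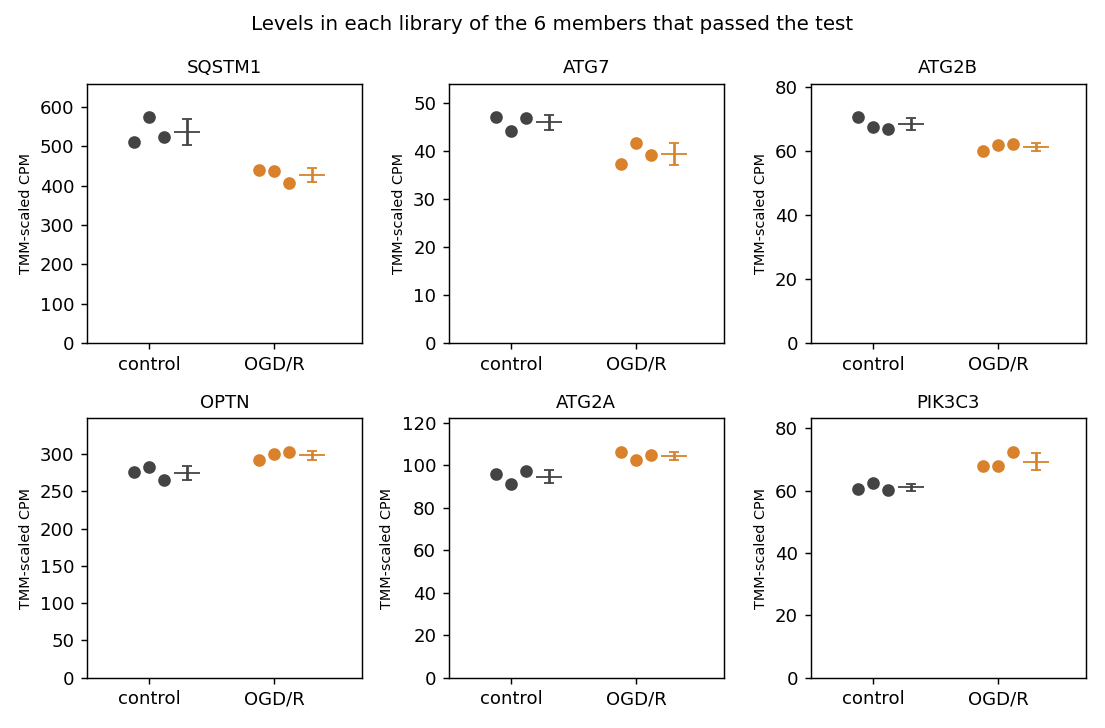
TMM-scaled CPM of the 6 changed members in each of 3 control (dark) and 3 OGD/R (orange) libraries, with the mean and SD beside the points and axes from 0. The groups do not overlap in any of the 6, and the distances are small against the levels, as in SQSTM1 from 537 to 428 CPM.

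Among the genes of membrane supply, ATG2A rose and its paralog ATG2B fell. ATG2 proteins are channels that carry lipids from the endoplasmic reticulum into the growing membrane. ATG2A (ENSG00000110046) was at 95.6, 91.1 and 97.1 CPM in control and 106, 102 and 105 CPM after OGD/R, a rise of 0.14 ± 0.05 (edgeR adjusted p = 0.0307). ATG2B (ENSG00000066739) was at 70.6, 67.6 and 67.1 CPM in control and 60.0, 61.9 and 62.4 CPM after OGD/R, a fall of -0.16 ± 0.06 (edgeR adjusted p = 0.0392). In neither gene did the groups overlap.

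The ratio of ATG2A to ATG2B CPM was 1.35, 1.35 and 1.45 in the control libraries and 1.77, 1.65 and 1.68 in the OGD/R libraries. It was thus higher in all 3 OGD/R libraries, by 0.30 on the log2 scale. The lack of overlap in both genes, in opposite directions, fixes this outcome. This pair was chosen after its values were seen, so the ratio is a description with no test. After the correction for transcript length and GC content the ATG2 genes differed by 0.34, with ATG2A at 0.30 ± 0.04 (edgeR adjusted p = 2.66e-07) and ATG2B at -0.04 ± 0.05 (adjusted p = 0.668).

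The calls of both ATG2 genes lay near the threshold. Without 1 library ATG2A ranged from 0.12 to 0.16 and ATG2B from -0.17 to -0.13. ATG2A did not pass with total-count scaling (0.11, adjusted p 0.111), nor without control replicate 2 (0.12, adjusted p 0.107) or OGD/R replicates 1 (0.13, adjusted p 0.104), 2 (0.16, adjusted p 0.0579) and 3 (0.14, adjusted p 0.0856), each left out in turn. ATG2B did not pass when any 1 library was left out. Its adjusted p was then 0.129, 0.0535 and 0.0718 without control replicates 1, 2 and 3, and 0.134, 0.0910 and 0.0696 without OGD/R replicates 1, 2 and 3.

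WIPI2, which recruits the conjugation machinery to the membrane, was at 123, 126 and 131 CPM in control and 131, 125 and 124 CPM after OGD/R (0.0039 ± 0.05). Its relative WIPI1 (0.07 ± 0.09, edgeR adjusted p = 0.671) and the lipid scramblase gene ATG9A (-0.07 ± 0.06, adjusted p 0.518) did not pass either. In all 3 the groups overlapped, and 44.8% of the ATG9A and 27.5% of the WIPI1 stretches are shared with other annotated genes.

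The upstream 250 bases of SQSTM1 and of the ATG2 paralogs are shown because these are the member with the steadiest call and the paralogs called in opposite directions. They come from RefSeq's promoter table on GRCh38.p14 and end at the base before an annotated transcript start. Capitals mark GC boxes (GGGCGG) and CCAAT boxes, on either strand. SQSTM1 (chr5:179820655-179820904, plus strand, 1 of 3 annotated starts), ATG2A (chr11:64917210-64917459, minus strand) and ATG2B (chr14:96363342-96363591, minus strand) read, from 5′ to 3′:
SQSTM1: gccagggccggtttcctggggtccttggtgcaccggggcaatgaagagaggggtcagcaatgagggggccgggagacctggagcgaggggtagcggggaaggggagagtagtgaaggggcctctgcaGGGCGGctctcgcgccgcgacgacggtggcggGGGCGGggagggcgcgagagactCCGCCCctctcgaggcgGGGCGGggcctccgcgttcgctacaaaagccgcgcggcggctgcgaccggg
ATG2A: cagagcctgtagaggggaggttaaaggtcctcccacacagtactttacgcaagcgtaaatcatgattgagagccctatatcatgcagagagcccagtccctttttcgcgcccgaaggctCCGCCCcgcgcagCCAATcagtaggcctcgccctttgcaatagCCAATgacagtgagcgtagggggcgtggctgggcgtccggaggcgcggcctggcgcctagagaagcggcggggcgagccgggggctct
ATG2B: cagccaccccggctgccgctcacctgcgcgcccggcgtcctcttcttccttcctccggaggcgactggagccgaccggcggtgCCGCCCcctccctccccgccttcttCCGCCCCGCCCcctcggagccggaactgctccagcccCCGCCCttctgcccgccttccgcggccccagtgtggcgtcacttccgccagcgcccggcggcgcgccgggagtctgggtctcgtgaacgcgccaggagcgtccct

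The ATG2A window holds 1 GC box and 2 CCAAT boxes, while the ATG2B and SQSTM1 windows hold GC boxes and no CCAAT box. Of the other changed members, PIK3C3, which rose, had a CCAAT box, while OPTN, which rose, and ATG7, which fell, had none. A link between motif and direction was not tested. Of the 36 members, 31 had a window in RefSeq's table (39 windows in all), while RB1CC1, UVRAG, ATG4D, STX17 and EPG5 had none. GC boxes stood in 27 of the 39 member windows and in 42.6% of all 35116 windows, and CCAAT boxes in 11 of the 39 and in 32.0% of all windows. The palindrome TCACGTGA, bound by the lysosome and autophagy factors TFEB and TFE3, was in 0 member windows and in 0.854% of all windows. Its inner E-box CACGTG was in the ATG14 and ATG3 windows and in 6.34% of all. The ATF4 composite core TGATGNAA was in 0 member windows (3.14% of all), the cyclic AMP element TGACGTCA in that of GABARAPL1 (1.65% of all), and the FOXO core GTAAACA in that of CALCOCO2 (2.98% of all). All motifs were searched on both strands, and a missing match says only that these letters are not in the window.

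In the lipid kinase complex, which makes the phosphoinositide that marks the membrane, the catalytic subunit rose. PIK3C3 (ENSG00000078142), the kinase VPS34, was at 60.4, 62.3 and 60.3 CPM in control and 67.9, 67.8 and 72.3 CPM after OGD/R. All OGD/R libraries lay above all control libraries, and the rise was 0.18 ± 0.06 (edgeR adjusted p = 0.0129). It did not pass without control replicate 3 (0.18, adjusted p 0.0561) or without OGD/R replicate 3 (0.15, adjusted p 0.101). Corrected for length and GC content, PIK3C3 was at 0.26 (adjusted p 0.000108).

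The partners of PIK3C3 did not pass. Its regulatory subunit PIK3R4 ranged from 47.3 to 50.1 CPM in control. OGD/R replicate 1 lay below that range and the other two libraries of the group above it. The PIK3R4 value was 0.10 ± 0.07 (edgeR adjusted p = 0.379), and it passed without OGD/R replicate 1 (0.19, adjusted p 0.0420). BECN1, the scaffold Beclin 1, had a value of 0.08 ± 0.06 (edgeR adjusted p = 0.425), and 36.3% of its stretches are shared with CNTD1. ATG14 (-0.02 ± 0.08) directs the complex to autophagy and UVRAG (-0.10 ± 0.08) to endosomes, while AMBRA1 (-0.04 ± 0.05) is a positive regulator. Their adjusted p were 0.888, 0.425 and 0.667.

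In the initiation complex none of the 4 measured members passed, of which ULK1 had an unadjusted p under 0.05. The kinase gene ULK1 was at 95.8, 101 and 101 CPM in control and 91.1, 92.4 and 88.4 CPM after OGD/R. These groups did not overlap (-0.13 ± 0.05, edgeR adjusted p = 0.0542). ULK1 passed with total-count scaling (-0.16, adjusted p 0.0157), with genes required to reach 1 CPM in 3 libraries (adjusted p 0.0469) and without control replicate 1 (-0.15, adjusted p 0.0343). With the correction for length and GC content it was at 0.0047 (adjusted p 0.960).

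The other subunits of the ULK1 complex had values near 0. They were 0.02 ± 0.05 for the scaffold RB1CC1 (FIP200), -0.02 ± 0.05 for ATG13 and 0.07 ± 0.09 for ATG101, a stabilising partner of ATG13. Adjusted p were 0.886, 0.809 and 0.682, and the groups overlapped in all 3. The 95% interval from the SE spans, for RB1CC1, -0.09 to 0.12, and for ATG13 -0.11 to 0.07. Of the ATG101 stretches 40.8% are shared with AC025259.1.

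Of the 9 conjugation genes, ATG7 fell and the others did not pass. ATG7 (ENSG00000197548) encodes the E1-like enzyme that activates both ATG12 and the ATG8 proteins. It was at 47.0, 44.2 and 46.9 CPM in control and 37.2, 41.8 and 39.2 CPM after OGD/R, and the groups did not overlap. The fall was -0.22 ± 0.07 (edgeR adjusted p = 0.0108). ATG7 did not pass without control replicate 3 (-0.21, adjusted p 0.0609), without OGD/R replicate 1 (-0.18, adjusted p 0.0765) or after the length and GC correction (-0.16, adjusted p 0.0571). Of its stretches 31.5% are shared with VGLL4, which had 28.8 ± 0.998 CPM in control and 28.7 ± 2.27 CPM after OGD/R.

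ATG5, which ATG12 is joined to, was at 46.1, 39.5 and 40.1 CPM in control and 45.3, 47.0 and 49.7 CPM after OGD/R. Control replicate 1 lay within the OGD/R range (0.17 ± 0.07, edgeR adjusted p = 0.0604). Without that library ATG5 passed (0.25, adjusted p 0.00966), as it did without OGD/R replicate 1 (0.20, adjusted p 0.0488). Its value corrected for length and GC content was 0.11 (adjusted p 0.223).

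The remaining conjugation genes had values between -0.14 (ATG10) and 0.13 (ATG3, the E2-like enzyme for ATG8 proteins), with adjusted p of 0.208 to 0.937 and overlapping groups. ATG12 was at 0.05 ± 0.05 and ATG16L1, which brings the ATG12-ATG5 conjugate to the membrane, at -0.06 ± 0.07. Among the proteases that process ATG8 proteins, ATG4B was at -0.01 ± 0.06, ATG4C at 0.10 ± 0.11 and ATG4D at -0.02 ± 0.10. ATG4B spread from 57.3 to 70.6 CPM after OGD/R and from 63.2 to 64.4 CPM in control.

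The ATG8 genes did not pass in any case. MAP1LC3B, whose lipidated protein is the standard marker of autophagosomes, was at 181, 174 and 177 CPM in control and 183, 177 and 176 CPM after OGD/R. The groups overlapped almost fully (0.01 ± 0.04, edgeR adjusted p = 0.927), and the 95% interval from the SE spans -0.07 to 0.09. Of its stretches 10.5% occur in other genes, mostly in its near-identical copy MAP1LC3B2, which was at 3.67 CPM in control.

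GABARAPL1 was at 129.6, 126 and 122 CPM in control and 118, 127 and 121 CPM after OGD/R (-0.05 ± 0.05, edgeR adjusted p = 0.550). GABARAPL2 was at 50.5, 51.0 and 51.3 CPM in control and 51.1, 62.1 and 52.8 CPM after OGD/R, with OGD/R replicate 2 apart from the rest (0.12 ± 0.06, adjusted p 0.218). Once corrected for length and GC content these genes were at -0.11 and -0.08, so the sign of GABARAPL2, the member with the shortest transcript, turned.

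GABARAP itself had only 2, 6 and 8 counts in the control libraries and 12, 13 and 12 in the OGD/R libraries, with an edgeR adjusted p of 0.207. Of its 50-base stretches 72.6% occur in annotated transcripts of other genes, so reads shared with them may be missing from its count. These counts are therefore no measure of the gene's expression, and no fold is given.

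Of the fusion genes, neither passed. STX17, the SNARE on the autophagosome, was at -0.03 ± 0.07 (edgeR adjusted p = 0.821). EPG5 was at 57.5, 56.5 and 54.5 CPM in control and 47.7, 51.2 and 52.6 CPM after OGD/R, without overlap (-0.15 ± 0.06, edgeR adjusted p = 0.0657). It passed with total-count scaling (-0.18, adjusted p 0.0235) and was at -0.02 (adjusted p 0.813) after the length and GC correction.

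Transcript length moved with several of these values. Across 10848 genes the fold change had a Spearman's rho of -0.37 with transcript length, given as a description since genes are not independent replicates. In the 18 members with transcripts of up to 3682 nucleotides, GABARAP included, the median log2 fold change was 0.07, and in the 17 longer ones -0.02. After the correction these medians were -0.01 and 0.02. The correction subtracts a smooth trend with length and GC content, fitted to each of these same libraries. It thus brings such medians together by construction, and would also remove a group difference that goes with length. Of the 6 changed members, SQSTM1, OPTN, ATG2A and PIK3C3 kept their call after the correction, while ATG7 and ATG2B, whose transcript has 13684 nucleotides, lost it.

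**Figure D4:**
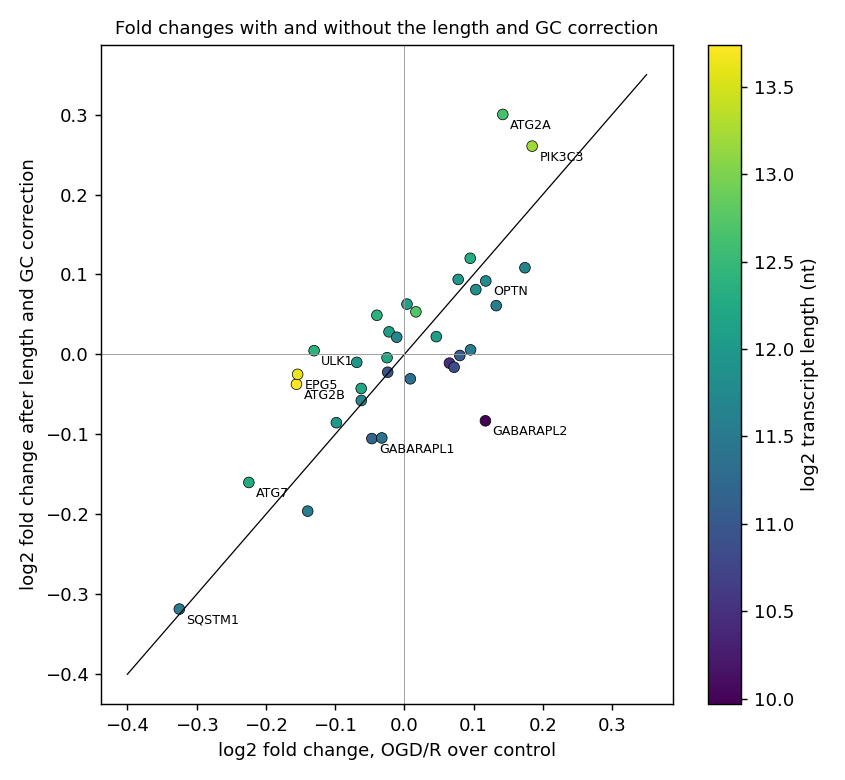
Log2 fold change of 34 members before (horizontal) and after (vertical) the correction for transcript length and GC content, coloured by log2 transcript length, with the line of equal values. SQSTM1 stays on the line (-0.32 and -0.32), long transcripts such as ATG2B and EPG5 move up towards 0, and the short GABARAPL2 moves from 0.12 to -0.08.

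The other genes of the pathway were read from 5 further lists, and shares are given beside the 10.2% higher and 9.48% lower of all genes. In the list of further autophagy genes 3 of 18 measured rose and 1 fell, with 2 lower under total-count scaling or a minimum of 1 CPM in 3 libraries. The segregase gene VCP rose from 530.1 ± 7.15 to 634 ± 7.66 CPM (0.26 ± 0.04, edgeR adjusted p = 1.32e-06), and VMP1, a scramblase of the endoplasmic reticulum, from 304 ± 11.3 to 341 ± 6.88 CPM (0.16 ± 0.04). The protease gene ATG4A rose from 11.2 ± 1.07 to 14.6 ± 1.93 CPM (0.38 ± 0.11). WDFY3, an adaptor for protein aggregates, fell from 76.3 ± 3.28 to 66.7 ± 1.29 CPM (-0.19 ± 0.05).

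The ATG4A and WDFY3 calls were the less firm ones. ATG4A did not pass without control replicate 3 (adjusted p 0.102), OGD/R replicate 2 (0.113) or OGD/R replicate 3 (0.0574), and was at 0.29 (adjusted p 0.0512) after the length and GC correction. WDFY3 did not pass without control replicate 3 (adjusted p 0.0703), and was at -0.08 (adjusted p 0.313) after the length and GC correction.

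Among receptors for mitochondria and endoplasmic reticulum, 2 of 16 measured rose and 0 fell in edgeR. At an unadjusted p under 0.05 there were 7 higher and 1 lower, where all genes have 15.1% higher and 15.2% lower. DESeq2 called 2 and 0, and limma-voom 3 and 0. At the same unadjusted threshold the further autophagy genes had 3 higher and 2 lower, and the list of autophagosome fusion 1 and 4. MTORC1 and AMPK control had 8 and 7, and the autophagy members 4 and 5. The mitophagy receptors BNIP3 and BNIP3L were the ones that rose. BNIP3 went from 58.5 ± 2.86 to 68.6 ± 1.31 CPM (0.23 ± 0.06, edgeR adjusted p = 0.00215) and BNIP3L from 98.0 ± 6.14 to 119 ± 5.15 CPM (0.28 ± 0.05, adjusted p 2.16e-05). Both passed under all 15 alternatives. The receptor list had 4 higher after the length and GC correction, and 1 lower with total-count scaling.

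Among genes of autophagosome fusion, 1 of 15 measured rose and 1 fell, with 2 higher after the length and GC correction and 2 lower with total-count scaling. VAMP8, the SNARE of the lysosomal side, rose from 56.8 ± 4.89 to 72.0 ± 1.14 CPM (0.34 ± 0.06, edgeR adjusted p = 1.51e-05). The adaptor gene PLEKHM1 fell from 57.3 ± 2.41 to 47.5 ± 3.07 CPM (-0.27 ± 0.06, edgeR adjusted p = 0.000866), and 29.9% of its stretches are shared with the pseudogene PLEKHM1P1.

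The list of MTORC1 and AMPK control, the nutrient and energy sensors above the ULK1 complex, had 4 of 32 measured higher and 6 lower. DDIT4, a stress-induced inhibitor of MTORC1, fell from 153 ± 4.28 to 120.0 ± 1.99 CPM (-0.35 ± 0.04, edgeR adjusted p = 4.60e-08), and 44.1% of its stretches are shared with DDIT4-AS1. TSC2, which also restrains MTORC1, fell from 91.1 ± 3.14 to 74.0 ± 5.31 CPM (-0.30 ± 0.05), and the Rag GTPase gene RRAGD from 82.4 ± 4.39 to 70.5 ± 4.12 CPM (-0.23 ± 0.06). RHEB, the GTPase that activates MTORC1 and that TSC2 inhibits, rose from 108 ± 2.17 to 122 ± 2.26 CPM (0.17 ± 0.05). LAMTOR5 (0.25 ± 0.07), a subunit of the lysosomal anchor, and AKT1S1 (0.17 ± 0.05), an inhibitory MTORC1 partner, rose as well. The remaining riser, LAMTOR4 (0.23 ± 0.08, edgeR adjusted p = 0.0332), was named after its value was seen, and its groups overlapped. The other 3 genes that fell, also named after their values were seen, were RPTOR (-0.17 ± 0.06), the scaffold of MTORC1, PRKAA2 (-0.25 ± 0.08), a catalytic subunit of AMPK, and FNIP2 (-0.32 ± 0.10), a folliculin partner. MTOR itself had a value of -0.06 ± 0.04 (adjusted p 0.388).

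After the length and GC correction this list had 1 higher and 3 lower, with RHEB at 0.09 (adjusted p 0.0913) and LAMTOR5 at 0.10 (adjusted p 0.274). Without control replicate 1 it had 1 higher and 3 lower, and without OGD/R replicate 2 it had 2 higher. LAMTOR5 did not pass without either of these libraries (adjusted p 0.0618 and 0.0814). AKT1S1 did not pass without control replicate 1 (adjusted p 0.0534), control replicate 3 (0.0592) or OGD/R replicate 1 (0.175). LAMTOR4 did not pass without control replicate 1 (adjusted p 0.180), OGD/R replicate 2 (0.126) or OGD/R replicate 3 (0.221), in limma-voom (0.0609) or after the length and GC correction (0.06, adjusted p 0.571). RPTOR, PRKAA2 and FNIP2 did not pass after that correction either (adjusted p 0.618, 0.0869 and 0.0674). Nor did RPTOR without control replicate 1 (0.0810), control replicate 2 (0.0784) or OGD/R replicate 3 (0.144), or PRKAA2 without control replicate 1 (0.208) or OGD/R replicates 1 (0.0875) and 3 (0.0522). FNIP2 did not pass without control replicates 1 (0.0672) and 3 (0.0551) or OGD/R replicates 1 (0.111) and 2 (0.0590), each left out in turn. DDIT4, TSC2 and RRAGD passed under all 15 alternatives.

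Among transcription factors known to act on autophagy genes, 0 of 15 measured rose and 3 fell in edgeR. At an unadjusted p under 0.05 there were 1 higher and 4 lower (15.1% and 15.2% of all genes), and DESeq2 and limma-voom each called 0 and 3. Without control replicate 1 there was 1 higher. The stress factor ATF4 fell from 275 ± 20.4 to 220.1 ± 10.7 CPM (-0.32 ± 0.05), its partner CEBPB from 227 ± 6.27 to 163 ± 11.05 CPM (-0.48 ± 0.05), and FOXO1 from 8.51 ± 0.58 to 5.77 ± 0.54 CPM (-0.56 ± 0.14). The edgeR adjusted p were 6.70e-07, 1.53e-11 and 0.00283, and 22.9% of the ATF4 stretches are shared with other genes, most of them with the pseudogene ATF4P3. TFEB, at 5.70 ± 0.60 and 6.41 ± 0.29 CPM (0.17 ± 0.15, adjusted p 0.508), and TFE3, at 237 ± 4.70 and 245 ± 9.10 CPM (0.05 ± 0.04, adjusted p 0.432), did not pass. Their activity is known to be set by where the protein sits in the cell, which these data do not show.

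**Figure D5:**
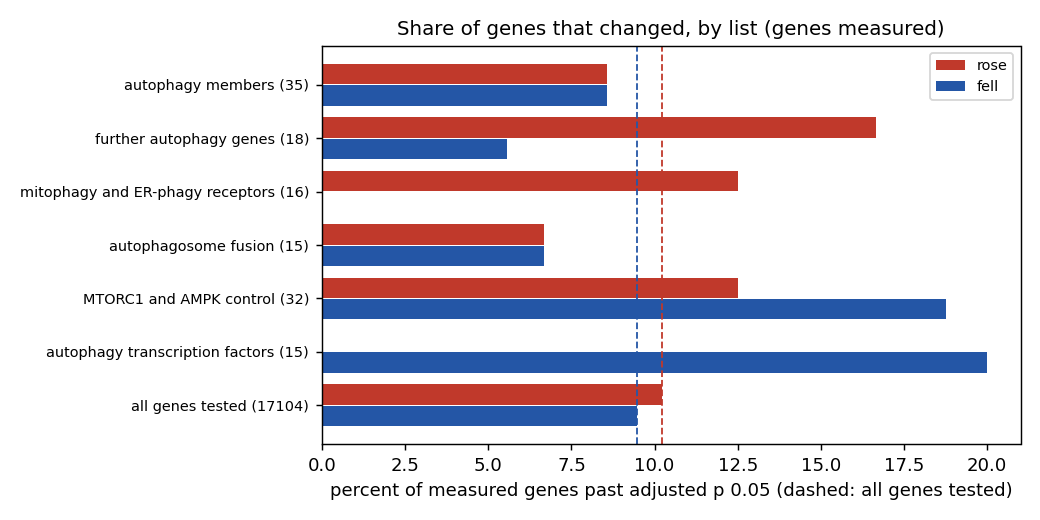
Percent of measured genes that rose (red) or fell (blue) at an adjusted p under 0.05 in the autophagy members, in 5 related lists and in all 17104 genes, with dashed lines at the shares of all genes (10.2% and 9.48%). The autophagy members, at 8.57% in each direction, lie near those lines, and the lists hold only 15 to 35 genes, so single genes move a bar visibly.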

How the data were processed

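Total RNA of HBMEC (3 control and 3 OGD/R libraries) was prepared with NEBNext Ultra reagents, per the labels' protocols. The authors deposited whole-number read counts per human Ensembl gene, and 17093 of 17104 IDs matched a symbol. Trimmomatic, SAMtools, HISAT2, edgeR and featureCounts are named without versions, per the submitters' processing notes, which give GRCm38, a mouse build. The build behind the counts is thus uncertain. Strand and the treatment of shared reads are not given in the sources used here.

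Counts were tested with edgeR 4.0.16 (R 4.3.3; TMM, filterByExpr with a minimum count of 10, which removed 0 genes, robust quasi-likelihood test, two-sided, Benjamini-Hochberg over all genes, threshold 0.05). SEs derive from the fold change and F statistic. The edgeR test was also run on simulated counts, with planted changes larger than those of the 6 changed members. Changes of their size and the alternatives were not simulated. Lengths, GC content and shared stretches came from GENCODE transcripts. Alternatives used DESeq2 1.42.0, limma 3.58.1 and mgcv 1.9.3. No pair of libraries agreed within sampling noise (chi-square per degree of freedom 4.10 to 7.53 within groups), so all 6 were kept.

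Members and lists were chosen with earlier results of these data known. All members are named, and from each other list up to 3 changed genes per direction with the smallest p, beside ATF4, TFEB, TFE3, MTOR, BNIP3 and BNIP3L.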

Additional observations from a re-analysis of the deposited data

How the results depend on the processing

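In all, 15 alternatives were run. The number of changed genes over the whole table stayed within 1.5 times of 3370 in each of them, and all 6 changed members passed with RLE scaling, DESeq2, limma-voom, no filter (which tested the same genes and shows nothing about filtering), a minimum of 1 CPM in 3 libraries, and the replicate block. Of the 6 changed members only SQSTM1 passed throughout, while 5 members that had not passed did so in at least 1 alternative. Total-count scaling gave 1 member higher and 5 lower, and moved the share of higher calls among all changed genes from 51.9% to 39.7%. After the length and GC correction, alone or with the replicate block, 1 member was lower. When 1 library was left out, 0 to 4 members were higher and 1 to 3 lower, with 2383 to 3367 changed genes, and control replicate 3 and OGD/R replicates 1, 2 and 3 were the libraries whose absence moved a member count by over 1.5 times. Without control replicate 3, 1079 genes were lower in place of 1621. The median over the members stayed within 0.0016 to 0.018 without 1 library. Its sign turned with total-count scaling (-0.026), the length and GC correction (-0.0013) and that correction with the replicate block (-0.00018). It also turned with the 1 CPM filter (-0.0034), which among the members only leaves out GABARAP, so that median is over 34 members.

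The titles number the libraries of each group 1 to 3. Deviations of same-numbered libraries correlated at -0.00087, 0.083 and -0.0077, and those of differently numbered libraries at -0.059 to 0.063. The libraries numbered 2 thus had the highest value, but all were small, and the numbers were not taken as pairs. With the replicate block 1827 genes rose and 1702 fell, with 4 members higher, ATG5 being the added one (0.18, adjusted p 0.0470), and 3 lower.

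Signs of values that had not passed turned for 15 members and MTOR, and none of the turned values passed. With total-count scaling this was so for WIPI2 (-0.026), RB1CC1 (-0.014) and MAP1LC3B (-0.022). After the length and GC correction, and with the replicate block added, the values were -0.016 and -0.017 for WIPI1, -0.0013 and -0.00018 for BECN1, 0.079 and 0.079 for MTOR, -0.030 and -0.031 for MAP1LC3B, 0.022 and 0.018 for ATG4B, 0.0047 and 0.0049 for ULK1, 0.028 and 0.029 for ATG13, -0.083 and -0.085 for GABARAPL2, 0.049 and 0.048 for AMBRA1, and -0.011 and -0.0097 for ATG101. Without 1 library the values ranged from -0.022 to 0.031 for WIPI2, -0.0079 to 0.026 for MAP1LC3B, -0.087 to 0.021 for ATG14, -0.11 to 0.0088 for STX17, -0.099 to 0.056 for ATG4B, -0.031 to 0.048 for RB1CC1, -0.16 to 0.095 for ATG4D, -0.064 to 0.0079 for ATG13 and -0.011 to 0.10 for ATG12. The causes were not tested. GABARAP, with 2 to 13 counts a library, was the member measured with the fewest counts.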
